A study of Mus musculus with 6 samples.

Results

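The genes described here are 43 genes of fatty acid oxidation and of its PPAR and PGC-1 control, taken from a list of names and found by gene symbol among the 55401 genes of the deposited count matrix. All 43 symbols were present, each on 1 row. RNA sequencing was performed on C2C12, a line of mouse muscle precursor cells whose myoblasts form myotubes once serum is lowered, here to 2% horse serum. There were 3 libraries of *Phf2* KO cells and 3 libraries of control cells. PHF2 is a demethylase of the repressive histone mark H3K9me2, and the comparison asked which transcripts change when it is lost. The *Phf2* KO cells had received a pool of 4 plasmids with different *Phf2* guides and Cas9, and the control cells, which the labels call wild type, a mock plasmid with Cas9 and a guide without a match in the mouse genome. Both plasmids carried the ZsGreen reporter, and transfected cells were sorted and expanded without cloning. Each group was thus a single mixed population, and the 3 libraries of a group were wells of one experiment, so the p-values measure the spread between wells. The RNA was taken 2 days after the change to differentiation medium.

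Fatty acids enter muscle cells through carriers such as CD36, are activated to acyl-CoA by synthetases, and pass into mitochondria on carnitine. There, dehydrogenases, hydratases and thiolases shorten the chain in a repeating spiral, and electrons leave through the electron transfer flavoprotein. The PPAR receptors, which bind fatty acids, and the estrogen-related receptors switch on the genes of this route together with the coactivators PGC-1alpha and PGC-1beta. The program is known for being raised during the maturation of oxidative muscle fibers.

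Estimated counts per library summed to between 52526109 and 67502788. Levels within a gene are given as CPM, counts scaled to library size after TMM normalization, and levels between genes as TPM, which is also scaled by transcript length. *Phf2* (ENSMUSG00000038025) was at 101 ± 4.73 CPM (SD, n = 3) in control cells and at 39.1 ± 1.78 CPM (SD, n = 3) in *Phf2* KO cells. The 7 markers of the muscle lineage summed to 6243 to 7336 TPM in control libraries and to 5050 to 5577 TPM in *Phf2* KO libraries. None of the 7 overlapped between the groups, each being lower in *Phf2* KO, and 5 of them fell with an adjusted p under 0.05. Of all genes tested, 25.1% did not overlap and 6.48% had an adjusted p under 0.05. *Acta1*, at 3725 TPM in control cells, was the largest part of the sum and did not pass (adjusted p = 0.117 in edgeR's quasi-likelihood test). All 7 adipocyte markers, among them *Adipoq* and *Plin1*, were under 1 TPM in every library, as were all 4 markers of endothelium and 3 of the 4 of macrophages. The 5 markers of satellite or reserve cells summed to 112 to 125 TPM in control libraries and 111 to 123 TPM in *Phf2* KO libraries. Of these, 2 were under 1 TPM in every library, and none of the 4 tested had an adjusted p under 0.05. The sums hide opposite directions. *Cd34* was lower, at 58.7 TPM in control and 51.9 TPM in *Phf2* KO cells without overlap, and the other 3 tested had log2 fold changes above 0. In bulk RNA, fewer cells of a kind and less RNA per cell cannot be told apart.

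Few members passed the test, and those that did lay in both directions. Of the 43 members, 39 passed the filter on low counts and 6 of them had an adjusted p under 0.05 in the quasi-likelihood test of edgeR with Benjamini-Hochberg adjustment over 17310 genes. *Lpl*, *Cpt1a* and *Echs1* rose, and *Cd36*, *Acsl6* and *Plin4* fell. The share called was 15.4% of the members tested, against 6.48% of all genes tested (3.22% higher and 3.26% lower). With a filter at 1 CPM in 3 or more libraries, the same 6 members were called of 37 tested, beside 9.4% of all genes. The members were chosen with earlier results of these data known, so these comparisons are descriptions. The median log2 fold change of the 39 was -0.02, against -0.00096 for all genes tested. The 3 *Phf2* KO libraries lay wholly on one side of the 3 control libraries for 13 of the 39 (33.3%), against 25.1% of all genes tested. Of these 13, 7 were higher and 6 were lower. For 29 of the 33 members that did not pass, the 95% interval lay inside a 1.5-fold change in either direction, and the exceptions were *Fabp4*, *Cpt1b*, *Esrrg* and *Ppargc1a*.

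**Figure D1:**
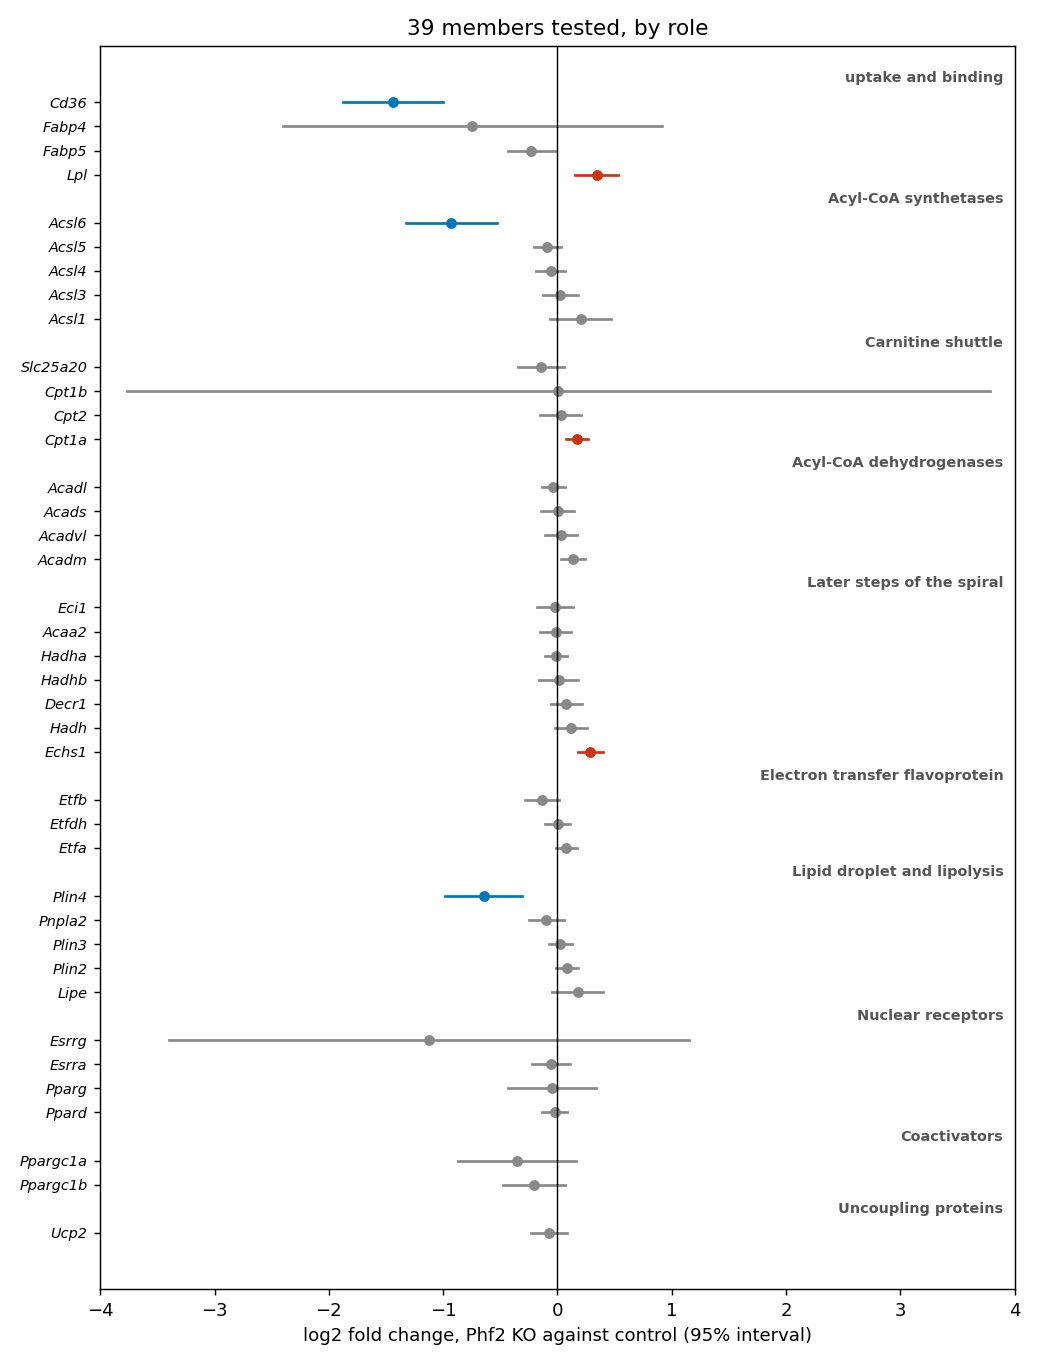
Log2 fold change of *Phf2* KO against control with its 95% interval for the 39 members tested, grouped by role. Members past the threshold are red where higher and blue where lower, and grey marks the rest. The widest interval is that of *Cpt1b*, from -3.77 to 3.78, and most others stay near 0.

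The promoters of the called members are shown because PHF2 acts on chromatin at such sites and because the PPAR and estrogen-related receptors bind the hexamer AGGTCA and its repeats. The RefSeq promoter table (GRCm38.p6, 250 bases before to 50 after a start) held 47 windows for 36 of the members, and none was found for *Lpl*. Each window is written 5′ to 3′ on the strand of the gene, with AGGTCA or its reverse complement TGACCT in capitals, extended to the full element TCAAGGTCA of the estrogen-related receptors where that is present.
*Cd36*, chr5:17835847-17836146, minus strand: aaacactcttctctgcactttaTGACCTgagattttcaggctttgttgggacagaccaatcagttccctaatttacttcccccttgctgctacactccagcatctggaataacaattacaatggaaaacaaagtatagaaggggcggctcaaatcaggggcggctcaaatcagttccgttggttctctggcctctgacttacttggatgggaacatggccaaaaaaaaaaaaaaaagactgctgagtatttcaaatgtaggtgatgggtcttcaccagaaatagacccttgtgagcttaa
*Acsl6*, the first of 3 windows, chr11:54303574-54303873, plus strand: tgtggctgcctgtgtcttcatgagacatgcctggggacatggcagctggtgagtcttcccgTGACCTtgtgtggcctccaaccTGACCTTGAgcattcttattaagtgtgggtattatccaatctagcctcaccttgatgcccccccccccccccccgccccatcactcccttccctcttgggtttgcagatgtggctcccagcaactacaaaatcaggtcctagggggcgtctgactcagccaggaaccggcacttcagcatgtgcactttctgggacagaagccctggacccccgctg
*Plin4*, chr17:56109733-56110032, minus strand: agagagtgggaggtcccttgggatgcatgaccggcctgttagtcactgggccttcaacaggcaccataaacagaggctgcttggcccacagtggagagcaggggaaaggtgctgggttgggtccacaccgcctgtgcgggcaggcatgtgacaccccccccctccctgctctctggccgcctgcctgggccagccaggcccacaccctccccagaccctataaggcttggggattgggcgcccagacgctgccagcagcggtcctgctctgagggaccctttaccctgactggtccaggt
*Cpt1a*, chr19:3323051-3323350, plus strand: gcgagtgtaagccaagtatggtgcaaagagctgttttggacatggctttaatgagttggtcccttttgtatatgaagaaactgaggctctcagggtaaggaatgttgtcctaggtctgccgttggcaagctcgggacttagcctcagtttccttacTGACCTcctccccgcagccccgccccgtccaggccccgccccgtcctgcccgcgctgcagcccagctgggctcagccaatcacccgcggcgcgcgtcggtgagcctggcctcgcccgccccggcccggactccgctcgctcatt
*Echs1*, chr7:140116372-140116671, minus strand: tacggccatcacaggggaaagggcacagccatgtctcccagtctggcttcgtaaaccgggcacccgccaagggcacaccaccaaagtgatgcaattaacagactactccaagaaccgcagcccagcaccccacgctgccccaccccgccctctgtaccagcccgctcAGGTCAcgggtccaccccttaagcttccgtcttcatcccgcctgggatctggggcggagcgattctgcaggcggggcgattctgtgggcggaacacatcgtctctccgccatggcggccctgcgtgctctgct

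These windows differed in composition. The *Cd36* window had 43.0% G and C and 3 CpG sites. The *Plin4*, *Cpt1a* and *Echs1* windows had 7, 22 and 20 CpG sites. The 3 *Acsl6* windows had 5, 36 and 1. The median was 16 over the 47 member windows and 7 over all 32851 windows. On both strands, AGGTCA was found in 12 of the 47 member windows (25.5%), against 16.3% of all windows, and it was present in the windows of *Cd36*, *Cpt1a* and *Echs1* and in 1 of the 3 of *Acsl6*, but not in that of *Plin4*. The element TCAAGGTCA, whose last letters are an AGGTCA, was found in 1 member window, that of *Acsl6*, and in 0.423% of all windows. The full PPAR element DR1, a direct repeat of AGGTCA with 1 base between the copies, was in none of the 47 and in 0.0396% of all windows. These matches are letters in a short window and not measured sites. Which start the cells used was not tested. The *Cd36* window lies inside the annotated gene, whose outer end on this strand is at 17888801.

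Among the genes of fatty acid uptake, *Cd36*, which encodes the main fatty acid carrier of the muscle membrane, had the largest fold change of all members past the threshold. *Cd36* (ENSMUSG00000002944, chromosome 5, 17781690 to 17888801, GRCm38) was at 4.93, 6.06 and 4.67 CPM in control replicates 1, 2 and 3 and at 1.89, 1.56 and 2.30 CPM in *Phf2* KO replicates 1, 2 and 3. All 3 *Phf2* KO libraries were below all control libraries. The mean fell to 36.7% of control, with log2 fold change -1.44, SE 0.203 and adjusted p 7.73e-04 in edgeR's quasi-likelihood test. The adjusted p was under the threshold in all 16 alternative fits, with a highest value of 0.0319.

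*Lpl* encodes lipoprotein lipase, which frees fatty acids from circulating triglyceride. *Lpl* (ENSMUSG00000015568, chromosome 8, 68880491 to 68907448) was at 17.97, 18.25 and 16.12 CPM in the control libraries and at 24.0, 21.1 and 21.2 CPM in the *Phf2* KO libraries. The groups did not overlap, and *Lpl* rose with log2 fold change 0.34, SE 0.0879 and adjusted p 0.0332 in edgeR's quasi-likelihood test. This call was near the threshold. It was lost when limma was run on TPM values with a pseudocount of 1 or of 0.1 (adjusted p 0.225 and 0.23). The call was also lost in each of the 6 fits without 1 library, with adjusted p between 0.0682 (without control replicate 1) and 0.127 (without *Phf2* KO replicate 1). The log2 fold change stayed between 0.28 and 0.38 in these 6 fits.

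The fatty acid binding proteins carry fatty acids through the cytosol. *Fabp5*, the epidermal type, was at 15.9, 17.2 and 17.5 CPM in control libraries and 13.2, 14.1 and 15.8 CPM in *Phf2* KO libraries. Each *Phf2* KO value was below each control value, the highest *Phf2* KO value by a small margin, and the log2 fold change of -0.23 had an adjusted p of 0.205 from the edgeR fit. *Fabp4*, the adipocyte type, was at 0.120 to 0.824 CPM in control libraries and 0.114 to 0.517 CPM in *Phf2* KO libraries. At this level its log2 fold change of -0.75 had a 95% interval from -2.40 to 0.91.

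**Figure D2:**
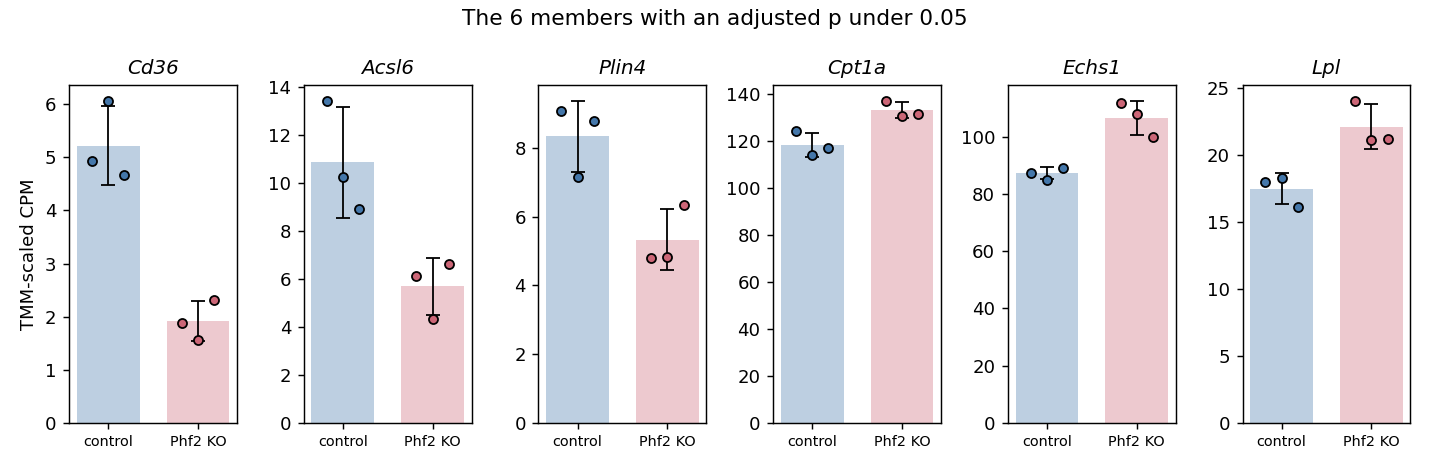
TMM-scaled CPM of the 6 members past the threshold in the 3 control and 3 *Phf2* KO libraries. Points are libraries, bars are means and error bars are SD. In each panel the 2 groups of points do not overlap, and the distance is largest for *Cd36*, whose *Phf2* KO mean was 36.7% of control.

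The 5 long-chain acyl-CoA synthetases activate fatty acids for oxidation or storage. 1 of them passed the threshold. *Acsl6* (ENSMUSG00000020333, chromosome 11, 54303798 to 54364756) was at 13.4, 10.3 and 8.93 CPM in control libraries and at 6.11, 4.34 and 6.63 CPM in *Phf2* KO libraries. The groups did not overlap in CPM, though the control libraries themselves were spread. In TPM they did overlap, with *Phf2* KO replicate 3 at 1.16 and control replicate 3 at 0.888. *Acsl6* fell to 52.4% of the control mean, with log2 fold change -0.93, SE 0.184 and adjusted p 0.00982 in edgeR's quasi-likelihood test. It also passed in each of the 6 fits without 1 library, with a highest adjusted p of 0.041. It did not pass when limma was run on TPM values with a pseudocount of 1 or of 0.1, with adjusted p of 0.435 and 0.447.

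*Acsl6* was the least abundant member of this family by TPM. Per transcript length, *Acsl3* made up 59.6% ± 2.78 (SD, n = 3) of the 5 transcripts in control cells and 59.7% ± 0.951 in *Phf2* KO cells, and *Acsl4* 27.3% ± 1.82 and 26.9% ± 0.922. *Acsl6* made up 0.525% ± 0.173 in control and 0.306% ± 0.146 in *Phf2* KO cells. *Acsl3*, which sits on lipid droplets and the endoplasmic reticulum, was at 187 to 223 CPM in control libraries and 192 to 223 CPM in *Phf2* KO libraries. *Acsl4*, which prefers arachidonic acid, was at 148 to 159 and 136 to 160 CPM. The groups of *Acsl3* overlapped almost fully, whereas those of *Acsl4* overlapped only through *Phf2* KO replicate 3, the other *Phf2* KO libraries being below all control libraries. *Acsl1*, the synthetase that feeds oxidation in muscle and heart, had a log2 fold change of 0.20 with a 95% interval from -0.07 to 0.47, and *Acsl5* had -0.09 with an interval from -0.21 to 0.03.

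The carnitine shuttle moves acyl groups into mitochondria. *Cpt1a* encodes the liver-type carnitine palmitoyltransferase of the outer mitochondrial membrane, the rate-setting entry step, and was at 59.1 TPM in control cells. *Cpt1b* was listed at 4.22 TPM, but this value is not reliable, as described below, so the 2 genes cannot be ranked. *Cpt1a* (ENSMUSG00000024900, chromosome 19, 3322334 to 3385733) was at 124, 114 and 117 CPM in control libraries and at 137, 131 and 132 CPM in *Phf2* KO libraries. The groups did not overlap, and the rise was to 112% of control, with log2 fold change 0.17, SE 0.0458 and adjusted p 0.0423 in edgeR's quasi-likelihood test. The call was lost in each of the 6 fits without 1 library (adjusted p from 0.0575 without control replicate 1 to 0.222 without control replicate 2) and in the fits with exactTest (0.0721) and with no filter (0.0717). Without 1 library, the log2 fold change stayed between 0.14 and 0.20. The TPM values, at 62.4, 55.4 and 59.4 in control and 49.0, 66.2 and 67.1 in *Phf2* KO libraries, overlapped, with *Phf2* KO replicate 1 the lowest of the 6 although its CPM was the highest. In the limma fit of log2(TPM + 1) the log2 fold change was 0.03 and the adjusted p 0.951.

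*Cpt1b* encodes the muscle-type enzyme, and its level could not be measured reliably in these files. *Cpt1b* (ENSMUSG00000078937, chromosome 15, 89416405 to 89425863) shares 81.4% of its exonic bases with *Gm44502*, a gene on the same strand that spans all of *Cpt1b* and most of its neighbour *Chkb*. The counts of *Cpt1b* were 3.54, 2.15 and 0.343 CPM in control libraries and 3.43, 0.0762 and 2.51 CPM in *Phf2* KO libraries. Those of *Gm44502* were 0, 4.21 and 10.3 CPM and 1.45, 11.8 and 1.73 CPM in the same order. The libraries with the least *Cpt1b* (control replicate 3 and *Phf2* KO replicate 2) had the most *Gm44502*, and the sum of both genes still ran from 3.54 to 11.9 CPM. The TPM of *Cpt1b* followed another order, with 5.28 in control replicate 3 and 2.44 in control replicate 1. The log2 fold change of 0.01 had a 95% interval from -3.77 to 3.78 and so bounds no change of a useful size.

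**Figure D3:**
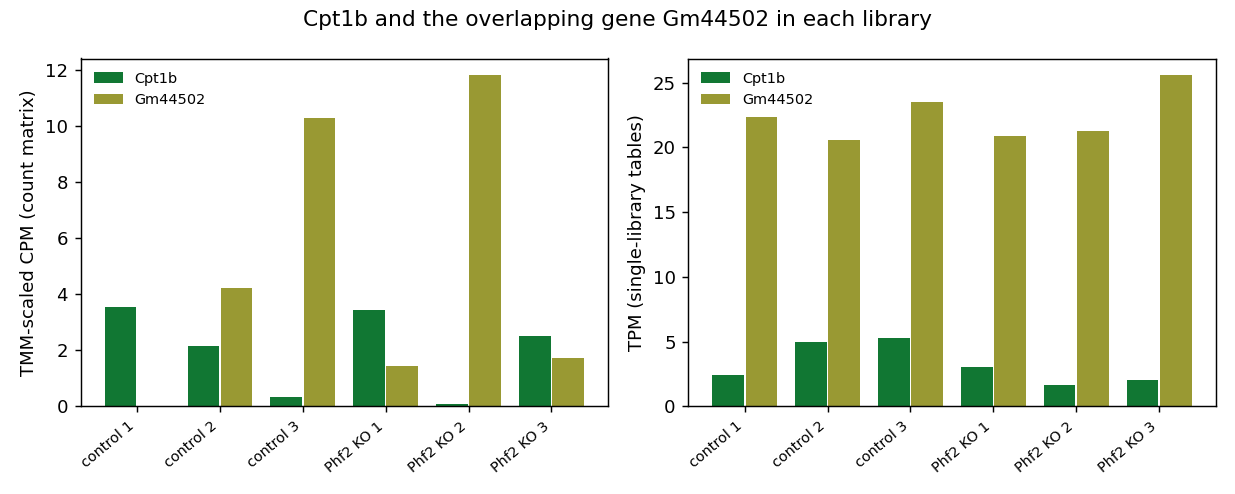
*Cpt1b* and *Gm44502* in each of the 6 libraries, as TMM-scaled CPM from the count matrix (left) and as TPM from the tables of single libraries (right). Bars are single libraries. In the counts, *Cpt1b* is at 0.0762 CPM in *Phf2* KO replicate 2, where *Gm44502* is at its highest, 11.8 CPM, whereas the TPM of *Gm44502* stays between 20.6 and 25.6.

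The other steps of the shuttle differed little between the groups. *Cpt2*, which encodes the inner-membrane transferase, was at 28.8, 28.1 and 30.1 CPM in control libraries and 32.9, 29.7 and 26.0 CPM in *Phf2* KO libraries, which overlapped. *Slc25a20*, the carnitine-acylcarnitine carrier, was at 18.8 to 19.3 CPM and at 15.1 to 18.4 CPM. Its groups did not overlap, but *Phf2* KO replicate 3 alone was far below the rest, and the log2 fold change of -0.14 had an adjusted p of 0.446 from the edgeR fit.

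The 4 acyl-CoA dehydrogenases carry out the first step of the spiral for chains of different length, and none of them passed the threshold. *Acadm*, the medium-chain enzyme, came nearest, at 85.9, 83.4 and 84.0 CPM in control libraries and 97.0, 87.3 and 94.2 CPM in *Phf2* KO libraries. The groups did not overlap, and the log2 fold change of 0.14 (95% interval 0.03 to 0.24) had an adjusted p of 0.131 from the edgeR fit and an unadjusted p of 0.0152. *Acadm* did not pass in any of the 16 alternative fits either, with a lowest adjusted p of 0.0913 without *Phf2* KO replicate 2. *Acadl*, *Acadvl* and *Acads*, for long, very long and short chains, had overlapping groups and log2 fold changes with 95% intervals that lay between -0.14 and 0.17. *Acadvl* shares 42.9% of its exonic bases with *Dvl2* on the opposite strand, and whether the counting used the strand of this directional kit is not given in the sources used here.

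In the later steps of the spiral, *Echs1* stood apart. *Echs1* encodes the short-chain enoyl-CoA hydratase of the mitochondrial matrix, which acts after the dehydrogenases and also in valine breakdown. *Echs1* (ENSMUSG00000025465, chromosome 7, 140105710 to 140116476) was at 87.4, 85.0 and 89.2 CPM in control libraries and at 111.8, 107.9 and 100.03 CPM in *Phf2* KO libraries. All *Phf2* KO libraries were higher than all control libraries, and the control libraries were close to each other. *Echs1* rose to 122% of control, with log2 fold change 0.29, SE 0.0499 and adjusted p 0.00319 in edgeR's quasi-likelihood test, and passed in all 16 alternative fits with a highest adjusted p of 0.0465.

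The enzymes before and after *Echs1* did not pass the threshold. *Hadha* and *Hadhb* encode the subunits of the trifunctional protein, which handles long chains. *Hadha* was at 182 to 194 CPM in control and 182 to 190 CPM in *Phf2* KO libraries, and *Hadhb* at 45.1 to 56.6 and 50.2 to 54.3 CPM. Both pairs of groups overlapped. *Hadh*, the short-chain hydroxyacyl-CoA dehydrogenase that follows the ECHS1 step, had a log2 fold change of 0.12 (95% interval -0.02 to 0.26). *Acaa2*, the thiolase that ends a turn, had -0.02 (-0.15 to 0.12). *Decr1* and *Eci1* rearrange the double bonds of unsaturated chains. *Decr1* had a log2 fold change of 0.08 and *Eci1* of -0.02, and both had intervals within -0.18 to 0.21.

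The electron transfer flavoprotein takes the electrons of the dehydrogenases to the respiratory chain. *Etfa*, its alpha subunit, was at 93.0, 90.3 and 90.3 CPM in control libraries and 97.7, 96.7 and 94.0 CPM in *Phf2* KO libraries. These groups did not overlap, but the log2 fold change was 0.08 (adjusted p = 0.379 from the edgeR fit). *Etfb*, its partner subunit, lay in the other direction, with a log2 fold change of -0.13 (adjusted p = 0.325 from the edgeR fit) and overlapping groups. *Etfb* shares 53.0% of its exonic bases with *Gm45233* on the same strand. *Etfdh*, the membrane oxidoreductase that receives the electrons, was at 51.8 to 54.1 CPM in control and 51.8 to 54.3 CPM in *Phf2* KO libraries, with a 95% interval of the log2 fold change from -0.11 to 0.11.

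Over the 18 members of the mitochondrial route (carnitine shuttle, dehydrogenases, later steps and flavoprotein), all were tested, 2 rose, none fell and 16 did not pass, so that 11.1% were called against 6.48% of all genes tested. The largest log2 fold change was 0.29 and the lowest -0.14, with a median of 0.01. For 15 of the 16 that did not pass, the whole 95% interval lay inside a 1.5-fold change in either direction, and *Cpt1b* was the exception. Of the 25 members outside this route, 21 were tested, 1 rose and 3 fell, a share of 19%, beside the same 6.48%.

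Among the genes of lipid droplets, *Plin4*, a perilipin that coats small droplets and is known from adipocytes and muscle, fell. *Plin4* (ENSMUSG00000002831, chromosome 17, 56100591 to 56109803) was at 9.07, 7.16 and 8.79 CPM in control libraries and at 4.81, 4.82 and 6.35 CPM in *Phf2* KO libraries. The groups did not overlap, with the highest *Phf2* KO library below the lowest control library. The mean fell to 63.9% of control, with log2 fold change -0.64, SE 0.157 and adjusted p 0.025 in edgeR's quasi-likelihood test. The call was lost in 4 of the 6 fits without 1 library, in which adjusted p was 0.1 or 0.076 when control replicate 1 or 3 was left out, and 0.0826 or 0.108 when *Phf2* KO replicate 1 or 2 was left out. The log2 fold change lay between -0.57 and -0.61 in these 4 fits. Limma on TPM values with a pseudocount of 1 or of 0.1 also lost the call, with adjusted p of 0.261 and 0.277.

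The other droplet genes did not pass. *Plin2*, the perilipin found on droplets of most cells, was at 119, 113 and 119.6 CPM in control libraries and 120.0, 129 and 123 CPM in *Phf2* KO libraries. The groups came close but did not overlap, and the log2 fold change was 0.08 (adjusted p = 0.374 from the edgeR fit). *Plin3* had a log2 fold change of 0.02 (95% interval -0.08 to 0.12). *Pnpla2*, which encodes adipose triglyceride lipase, had -0.10 (-0.25 to 0.06), and *Lipe*, which encodes hormone-sensitive lipase, had 0.18 (-0.05 to 0.40). *Plin5*, the perilipin of oxidative tissue, was at 0.0687 to 0.223 CPM in control libraries and 0.0381 to 0.065 CPM in *Phf2* KO libraries, too low to pass the filter.

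*Cd36*, *Acsl6* and *Plin4* moved in the same direction as the muscle lineage markers, of which *Ckm* had a log2 fold change of -0.78 and *Des* of -0.37. The part of differentiation state in the fall of the 3 genes was not tested. Markers of adipocytes, which also express *Cd36* and *Plin4*, were at or near 0, since they summed to at most 0.295 TPM in control libraries and 0.201 TPM in *Phf2* KO libraries. Which cells the *Cd36* and *Plin4* transcripts came from was not tested.

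The receptors and coactivators of the program did not pass the threshold. *Ppard*, the PPAR that is widely expressed in muscle, was at 57.8, 54.2 and 57.8 CPM in control libraries and 55.7, 54.6 and 56.5 CPM in *Phf2* KO libraries. The groups overlapped, and the log2 fold change was -0.03 with a 95% interval from -0.14 to 0.09. *Pparg*, the receptor of adipocyte formation, was at 5.61, 5.77 and 4.58 CPM and at 6.41, 4.34 and 4.65 CPM, with a log2 fold change of -0.05 and a wider interval from -0.44 to 0.33. *Ppara*, the receptor that drives oxidation in liver, held 0, 0.0687 and 0.103 CPM in control libraries and 0.13, 0.0762 and 0.0443 CPM in *Phf2* KO libraries, which is at or near the level of a few counts, and it was not tested. By TPM, *Ppard* was at 38.1 ± 2.58 (SD, n = 3) in control cells, and *Pparg* at 3.63 ± 3.02, where control replicate 3 had 0.197 TPM although its CPM was close to that of the other libraries.

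The estrogen-related receptors bind their element as single receptors or pairs, without a ligand. *Esrra*, the most abundant of them by TPM in both groups, was at 33.2, 35.5 and 33.2 CPM in control libraries and 33.5, 35.5 and 28.9 CPM in *Phf2* KO libraries, with a log2 fold change of -0.06 (95% interval -0.23 to 0.11). *Esrrg*, the type enriched in oxidative fibers, was at 0.263, 0.515 and 0.326 CPM in control libraries and 0, 0.476 and 0.0443 CPM in *Phf2* KO libraries. At this level the interval, from -3.40 to 1.15, bounds little. *Esrrb* was listed at 0 in 3 of the 6 libraries and was not tested.

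Both PGC-1 genes had lower means in *Phf2* KO cells with overlapping groups. *Ppargc1a*, the coactivator that raises mitochondrial content in muscle, was at 2.49, 4.16 and 4.93 CPM in control libraries and 3.53, 2.80 and 2.73 CPM in *Phf2* KO libraries. The control libraries spanned the *Phf2* KO libraries, and the log2 fold change of -0.35 had a standard error of 0.239 and an adjusted p of 0.481 from the edgeR fit. *Ppargc1b* was at 11.5, 10.1 and 9.77 CPM and at 8.78, 8.11 and 10.3 CPM. Only *Phf2* KO replicate 3 reached the control range, and the log2 fold change of -0.21 had an adjusted p of 0.423 from the edgeR fit. For *Ppargc1a* the interval from -0.87 to 0.16 leaves room for a fall of more than 1.5-fold.

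The uncoupling proteins of the inner mitochondrial membrane are targets of PPARs in muscle. *Ucp2* was at 71.6, 86.4 and 84.4 CPM in control libraries and 74.6, 82.2 and 73.5 CPM in *Phf2* KO libraries, which overlapped (log2 fold change -0.07, 95% interval -0.23 to 0.08). *Ucp3*, the muscle type, was at 0.137 to 0.206 CPM and 0.133 to 0.26 CPM and did not pass the filter.

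Compared per transcript length, the members ran over a wide range in control cells. The mean was at least 100 TPM for 8 members (*Acsl3*, *Etfa*, *Plin2*, *Acadl*, *Etfb*, *Echs1*, *Acadvl* and *Hadha*), from 10 to under 100 TPM for 19, from 1 to under 10 TPM for 10, and under 1 TPM for 6 (*Fabp4*, *Plin5*, *Ucp3*, *Ppara*, *Esrrb* and *Esrrg*). Among the receptors and coactivators, *Ppard* at 38.1 TPM and *Esrra* at 29.2 TPM were the highest. The 3 members that fell were all in the class of 1 to under 10 TPM, with control means of 3.77 TPM for *Cd36*, 2.84 TPM for *Plin4* and 1.25 TPM for *Acsl6*. Those that rose were at 116 TPM (*Echs1*), 59.1 TPM (*Cpt1a*) and 9.13 TPM (*Lpl*). The summed TPM of all 43 members was 1964 ± 38.4 (SD, n = 3) in control cells and 1987 ± 11.7 in *Phf2* KO cells.

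**Figure D4:**
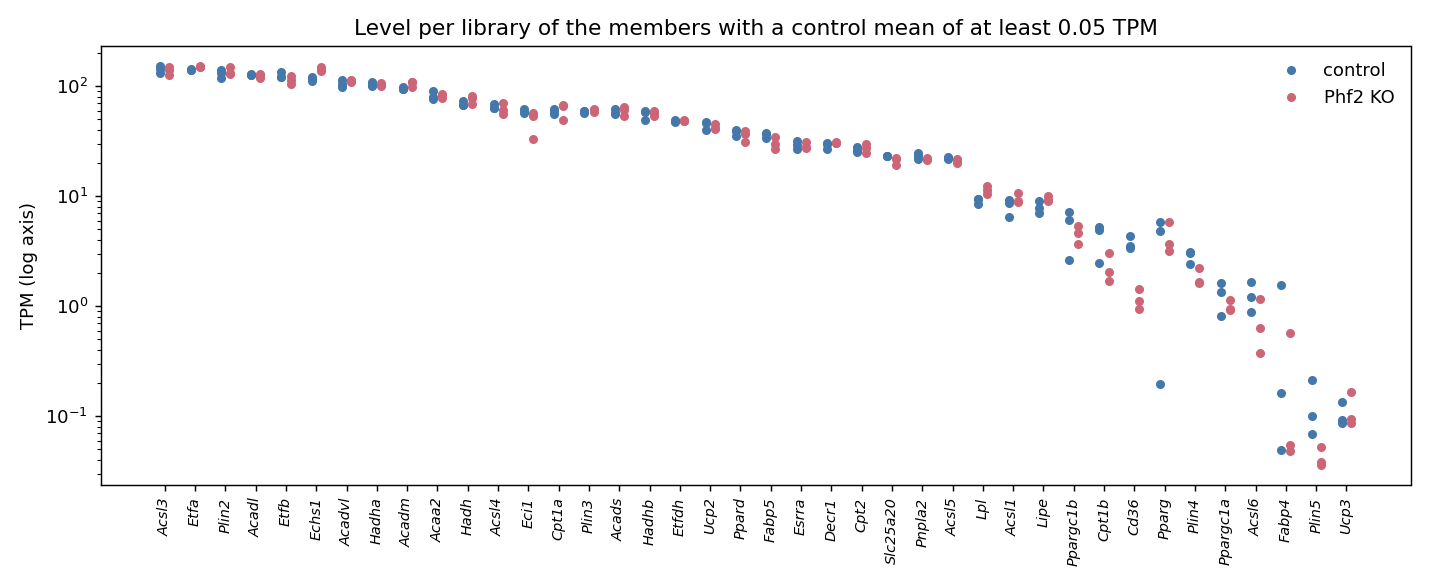
TPM on a log axis in each control (blue) and *Phf2* KO (red) library for the 40 members with a control mean of at least 0.05 TPM, ordered by that mean. The points of most members lie on top of each other, and those of *Cd36* in *Phf2* KO lie apart below the control points.

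Further genes of the pathway were counted on 4 lists that leave out the 43 members. Of these 76 genes, 69 were tested, 6 rose, 2 fell and 61 did not pass, so that 11.6% were called against 6.48% of all genes tested, and the median log2 fold change was -0.003. Of the 28 further oxidation enzymes, 2 rose and none fell, a share of 7.14%, near the 6.48% of all genes tested. *Abcd2*, a peroxisomal transporter of very long acyl-CoA, rose by a log2 fold change of 0.53 (adjusted p = 0.0217 from the edgeR fit), and *Scp2*, a peroxisomal thiolase and lipid carrier, by 0.18 (adjusted p = 0.023 from the edgeR fit). Of the 13 tested genes of uptake and storage, *Fabp3*, the fatty acid binding protein of heart and muscle, fell, and the other 12 did not pass. The share called was 7.69%, also near that of all genes tested. *Fabp3* was at 8.77, 9.22 and 8.43 CPM in control libraries and at 7.12, 4.68 and 5.36 CPM in *Phf2* KO libraries, which did not overlap, with log2 fold change -0.62, SE 0.157 and adjusted p 0.0308 in edgeR's quasi-likelihood test.

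Of the 4 tested PPAR target genes, 1 rose (25%, beside 6.48% of all genes tested), and a share of so few genes says little. *Pdk4*, the pyruvate dehydrogenase kinase that spares glucose when fat is burned, was at 49.3, 42.6 and 49.7 CPM in control libraries and at 61.4, 54.7 and 58.8 CPM in *Phf2* KO libraries. The groups did not overlap, and the log2 fold change of 0.30 had an SE of 0.0686 and an adjusted p of 0.0164 in edgeR. *Angptl4*, an inhibitor of lipoprotein lipase and also a PPAR target, lay in the other direction with a log2 fold change of -0.25 and an adjusted p of 0.0688 from the edgeR fit.

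Of the 24 tested partners of the PPAR receptors and of PGC-1, 3 rose and 1 fell, a share of 16.7% beside 6.48% of all genes tested. *Prkag3*, the AMPK gamma subunit of fast glycolytic fibers, was at 43.2, 39.7 and 33.4 CPM in control libraries and at 25.1, 21.3 and 21.0 CPM in *Phf2* KO libraries. It fell by 0.79 on the log2 scale (standard error 0.0997, adjusted p = 5.90e-04 from the edgeR fit). *Nrip1*, a corepressor of the same receptors, rose by 0.22, *Ncoa2*, a coactivator, by 0.19, and *Sirt1*, a deacetylase that acts on PGC-1alpha, by 0.31, with adjusted p of 0.0345, 0.0452 and 0.0482 from the edgeR fit. *Rxra*, a retinoid X receptor and dimer partner of the PPARs, had a log2 fold change of 0.12 (95% interval 0.01 to 0.22) and an adjusted p of 0.199 from the edgeR fit. *Rxrg* was listed at 0 in 5 of the 6 libraries.

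**Figure D5:**
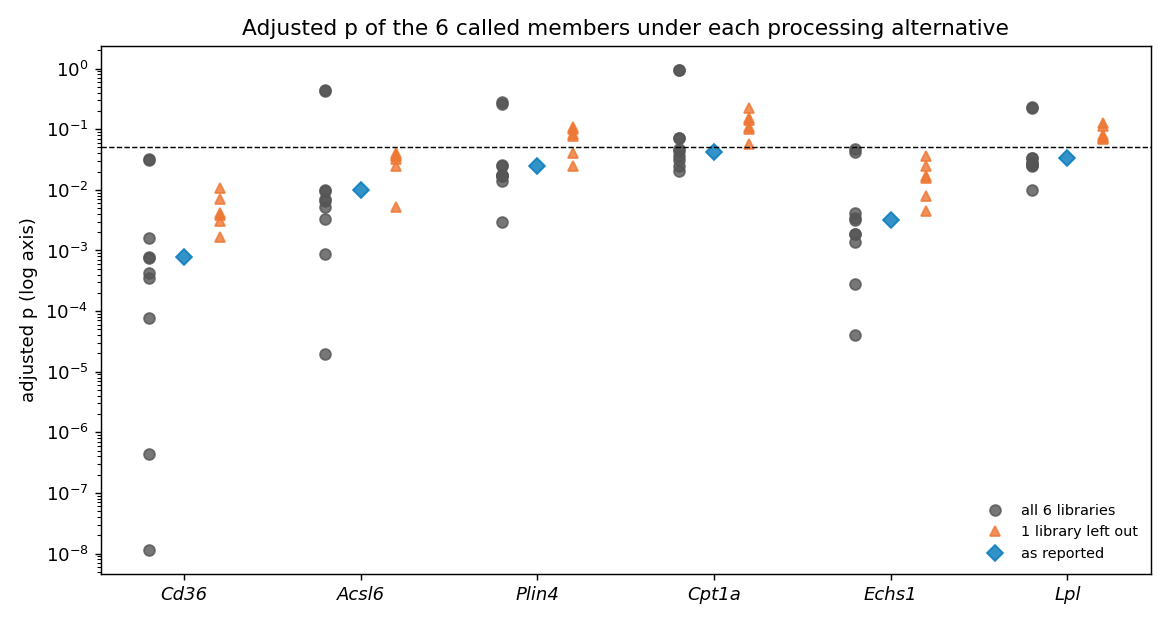
Adjusted p on a log axis of the 6 called members as reported (diamonds), in the alternative fits with all 6 libraries (circles) and in the 6 fits without 1 library (triangles). The dashed line is 0.05. All points of *Cd36* and *Echs1* lie under the line, and all triangles of *Lpl* and *Cpt1a* lie above it.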

How the data were processed

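RNA sequencing of polyadenylated RNA was analysed for 3 control and 3 *Phf2* KO libraries. The authors aligned reads to mm10 with HISAT2 and ran StringTie. Versions and annotation are not given in the sources used here. The deposited matrix holds estimated counts, not scaled by library size. In single-transcript genes with at least 500 counts, coverage times length per count had a median between 74.98 and 74.99 bases, so a read pair adds several counts. Deposited tables for each single library list TPM, a signal scaled by the authors per library, and coverage as mean depth per base. Their rows of assembled loci were not used. TPM and counts can split reads differently.

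After filterByExpr (minimum count 10) and TMM scaling, edgeR 4.0.16 was run with its quasi-likelihood test in R 4.3.3 with robust dispersions. P-values were adjusted over 17310 genes (threshold 0.05), and the prior count behind log2 fold changes was 0.125. The common biological coefficient of variation was 0.135. The paper names exactTest of edgeR, which was an alternative. The other alternatives were DESeq2 1.42.0, its size factors, no filter, library size alone, a filter at 1 CPM in 3 or more libraries, the replicate block, counts divided by 4, limma 3.58.1 on log2(TPM + 1) and log2(TPM + 0.1), stricter thresholds and leaving out each library. The fit was tested on simulated data. Coordinates are of GENCODE M21 (GRCm38, the assembly of mm10). Every member could be named, with values per library for those past the threshold, the receptors, the coactivators, both CPT1 genes and the largest change in each role. At most 5 genes past the threshold and a few preset ones (*Pdk4*, *Angptl4*, *Fabp3*, *Rxra*, *Rxrg*) were named from the further lists. The members and lists were chosen with earlier results of these data known. Figures were drawn with Python 3.11.15.

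Libraries of the same replicate number deviated alike, but whether the numbers mark pairs was not tested. Over the 10923 genes that averaged 5 CPM or more, deviations from the group mean correlated at 0.235, 0.258 and 0.168 between libraries of the same number, and at most at -0.0019 between others. Deviations within a group cancel out, so the negative values between others follow in sum from the positive ones and add no support. Genes, over which these correlations run, are no independent replicates, and so few libraries can also match by chance. The main fit did not use the replicate numbers. The labels do not say what a number marks.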

Additional observations from a re-analysis of the deposited data

How the results depend on the processing

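The 3 members higher and 3 lower stayed within 1.5 times these counts under exactTest, DESeq2, its size factors, library size alone, no filter, the CPM filter and counts divided by 4. With the replicate number as a block, 3 members were higher and 3 lower, the same 6 genes, so the block changed no call of a member. It called 7.6% of all genes. The further pathway genes then numbered 6 higher and 3 lower. Run on TPM values, limma with either pseudocount called 1 member higher and 1 lower (*Echs1* and *Cd36*) and 0 further pathway genes higher and 1 lower, where they called 0.913% and 1.03% of all genes. Each fit without 1 library called 1 member higher and 2 to 3 lower, and 0 to 3 further genes higher and 1 to 2 lower, where 2.62% to 5.8% of all genes were called against 6.48% with all libraries. An adjusted p under 0.01 left 1 member higher and 2 lower, and 0 further genes higher and 1 lower (2.73% of all genes). A fold change of at least 1.5 left 0 members higher and 3 lower, and 0 further genes higher (1.32% of all genes). DESeq2 called 5 further genes lower (10.3% of all genes) and the fit with no filter 4 (4.15% of all genes). The causes were not tested. No call of a single member turned its direction under any of these settings. In the main fit, *Fabp4*, *Cpt1b*, *Esrrg* and *Ppargc1a* were measured too loosely to bound a 1.5-fold change. *Plin5*, *Ppara*, *Esrrb* and *Ucp3* lay too low to be tested. The intervals of the main fit do not cover the change from counts to TPM. Over all settings the log2 fold change of *Pparg* ran from -0.24 to 1.02, the highest from limma on log2(TPM + 0.1). That of *Eci1* ran from -0.36 to 0.03, and neither gene passed under any setting.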

Other observations

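The enzymes of the tricarboxylic acid cycle, which takes up the acetyl-CoA of the spiral, were counted for comparison. All 18 were tested and none passed the threshold in the edgeR quasi-likelihood fit, while 5 of the 18 had an unadjusted p under 0.05, as had 19.4% of all genes tested. The median log2 fold change was -0.04 (lowest -0.19, highest 0.11), and 11 were below 0.

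The deposited counts and TPM values of some members did not move together. If both came from one estimate, TPM divided by CPM would be nearly constant over the 6 libraries, and over the 13344 genes that averaged 1 CPM or more the median ratio of the highest to the lowest was 1.08. It was over 1.5 for 5 of the 37 members above that level (13.5%, against 13.9% of these genes). These were *Cpt1b* (32.0), *Pparg* (23.7), *Ppargc1b* (2.34), *Acsl6* (2.02) and *Eci1* (1.96). *Eci1* had 32.9 TPM in *Phf2* KO replicate 3 and 53.7 to 61.5 TPM in the other libraries, while its CPM lay between 25.8 and 30.1 in all 6. Of the other called members, *Cpt1a* had a ratio of 1.425 and *Cd36* of 1.28, both above the median of 1.08. For *Echs1*, *Lpl* and *Plin4* the ratio was at most 1.09.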
